A study of Mus musculus with 8 samples.

Results

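The genes of hair hardening form a group of 10 in a table of 18540 genes counted in mouse wound skin. They were chosen by name, for what their proteins do, with earlier results of these data known: trichohyalin (Tchh) and its relative Tchhl1, the peptidylarginine deiminases Padi1, Padi3 and Padi4, the transglutaminases Tgm1, Tgm3 and Tgm5, the calcium-binding protein S100a3 and the copper oxidase Hephl1. All 10 were in the table and passed the filter on low counts, which 15147 genes passed. RNA was sequenced from 8 wounds, of which 4 had been given PBS (control) and the other 4 Z1C2Z for 15 days. Z1C2Z is a nanocomposite in which ZnO2 and CeO2 particles sit in the zinc-imidazole framework ZIF-8, with the higher of 2 ratios of CeO2 to ZnO2. It was injected around the wound at 100 μg/kg. The sample titles name the control group by an abbreviation and the other group by a word that does not name the composite, so its name comes from the study's display of the sequenced samples, which carry the same numbers there. The 15 days come from the methods, and the dose is that of the wound experiments in general. Full-thickness wounds were made on the backs of diabetic db/db mice and of C57BL mice, a pair of wounds on each mouse. The sources do not say which of these mice the sequenced skin came from, nor which samples shared a mouse, so p-values measure the spread between these 8 samples. Control samples carry the numbers 1, 2, 3 and 5 of their titles and Z1C2Z samples the numbers 1, 2, 4 and 5, and values are given in that order.

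Trichohyalin fills the cells of the inner root sheath, the sleeve that moulds the growing hair, and the medulla in the hair's centre. It is laid down as soft granules. Peptidylarginine deiminases then turn its arginines into citrulline, which loosens it, and transglutaminases link it to itself and to keratin filaments, so that the sheath becomes rigid. In people, inherited loss of trichohyalin, PADI3 or transglutaminase 3 causes uncombable hair. The same families of enzymes work in the epidermis between follicles, where transglutaminases build the cornified envelope.

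Tchh and Tchhl1 lie next to each other on chromosome 3, and Padi3 and Padi4 are neighbours on chromosome 4. The 200 bases before their RefSeq start sites (build GRCm38.p6, read 5′ to 3′ on the gene's strand) are shown for these 4 genes, so that neighbours of 1 locus can be compared. The windows are chr3:93442130-93442329 (plus strand) for Tchh, chr3:93468554-93468753 (plus strand) for Tchhl1, chr4:140810649-140810848 (minus strand) for Padi3 and chr4:140774204-140774403 (minus strand) for Padi4. Capitals mark letters that match any of 6 short motifs on either strand. The motif of the TATA box was searched as TATAAA and that of the NF-Y factor, common in proliferating cells, as CCAAT. The AP-1 motif of stress and differentiation responses was searched as TGANTCA. For GATA factors, one of which acts in the inner root sheath, the letters searched were GATAA. For the TCF/LEF factors of Wnt signalling they were CTTTGNA, and for homeobox factors in general TAATTA.
Tchh: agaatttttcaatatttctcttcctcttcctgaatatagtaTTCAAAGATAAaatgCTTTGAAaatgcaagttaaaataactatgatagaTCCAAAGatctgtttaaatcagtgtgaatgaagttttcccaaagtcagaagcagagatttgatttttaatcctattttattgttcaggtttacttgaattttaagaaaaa
Tchhl1: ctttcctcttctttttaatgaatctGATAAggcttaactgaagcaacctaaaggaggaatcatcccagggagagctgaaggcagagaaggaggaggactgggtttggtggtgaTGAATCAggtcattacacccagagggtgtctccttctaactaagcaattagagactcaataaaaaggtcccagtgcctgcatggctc
Padi3: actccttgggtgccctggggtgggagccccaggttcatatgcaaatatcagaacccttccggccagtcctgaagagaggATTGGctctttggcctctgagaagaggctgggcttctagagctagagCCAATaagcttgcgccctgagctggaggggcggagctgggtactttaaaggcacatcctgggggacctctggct
Padi4: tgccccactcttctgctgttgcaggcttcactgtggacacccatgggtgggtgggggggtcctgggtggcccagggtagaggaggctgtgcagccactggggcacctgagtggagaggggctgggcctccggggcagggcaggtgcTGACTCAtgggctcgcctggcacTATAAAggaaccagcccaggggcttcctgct

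The Tchh window held 3 TCF/LEF matches, which begin 159, 144 and 110 bases before the start, and a GATA match at 153 that shares a base with the first of them. Its GC content over 250 bases was 27.6%, the lowest of the 14 windows that RefSeq lists for the 10 genes. Tchhl1 also held a GATA match, at 175, and an AP-1 match at 87. No other gene of the 10 had a GATA match, a motif found in 22.6% of the 32851 RefSeq windows of 250 bases. Padi3 had NF-Y matches at 121 and 74 and no TATA box, whereas its neighbour Padi4 had an AP-1 match at 54 and a TATA box at 31. For all windows the shares were 33.8% with an NF-Y box, 12.4% with a TATA box, 6.75% with an AP-1 match, 15.7% with a TCF/LEF match and 4.84% with a homeobox match, the last of which no window of the 10 genes held. These matches are letters in a window and were not tied to binding.

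Levels are CPM, the reads counted on a gene divided by the library's total after TMM scaling. Of the 10 genes, 6 rose in Z1C2Z at an edgeR adjusted p under 0.05 and a log2 fold change over 1: Tchhl1, S100a3, Padi1, Padi3, Padi4 and Hephl1. Over all genes tested 2.15% rose by this rule. The transglutaminases Tgm1, Tgm3 and Tgm5 did not pass, and Tchh missed the threshold narrowly. None of the 10 fell, against 1.25% of all genes, and none had an unadjusted p under 0.05 in that direction in edgeR, DESeq2 or limma-voom. Upward, 8 of the 10 had an unadjusted p under 0.05 in each of these fits. For 9 of the 10 the log2 fold change was above 0 (51.1% of all genes), and its median was 1.97 against 0.01 for all genes. In 5 of the 10 every Z1C2Z sample lay above every control sample, compared with 8.45% of all genes. In bulk RNA, fewer cells of a type and less RNA in each cell cannot be told apart.

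**Figure D1:**
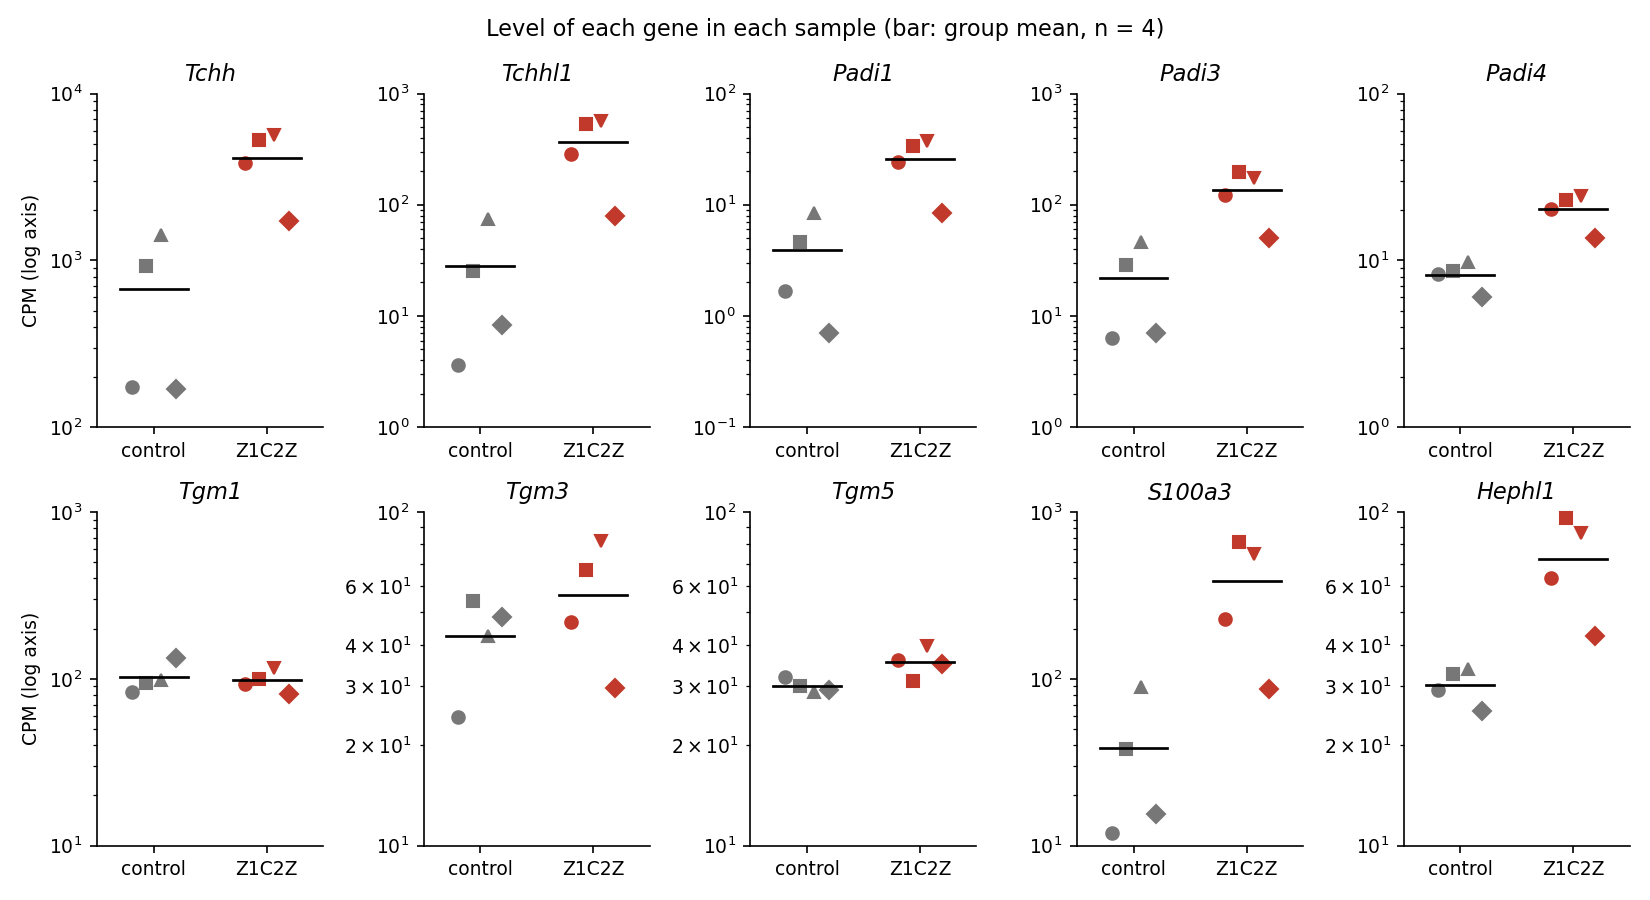
Level of each gene in CPM on a log axis, with 1 point for each sample and a bar at the group mean (n = 4); circles, squares, upright triangles, inverted triangles and diamonds stand for samples numbered 1, 2, 3, 4 and 5. Tchh, Tchhl1, Padi3, Padi4 and Hephl1 do not overlap between groups, Padi1 and S100a3 touch at control-3 and Z1C2Z-5, and the 3 transglutaminases overlap.

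**Figure D2:**
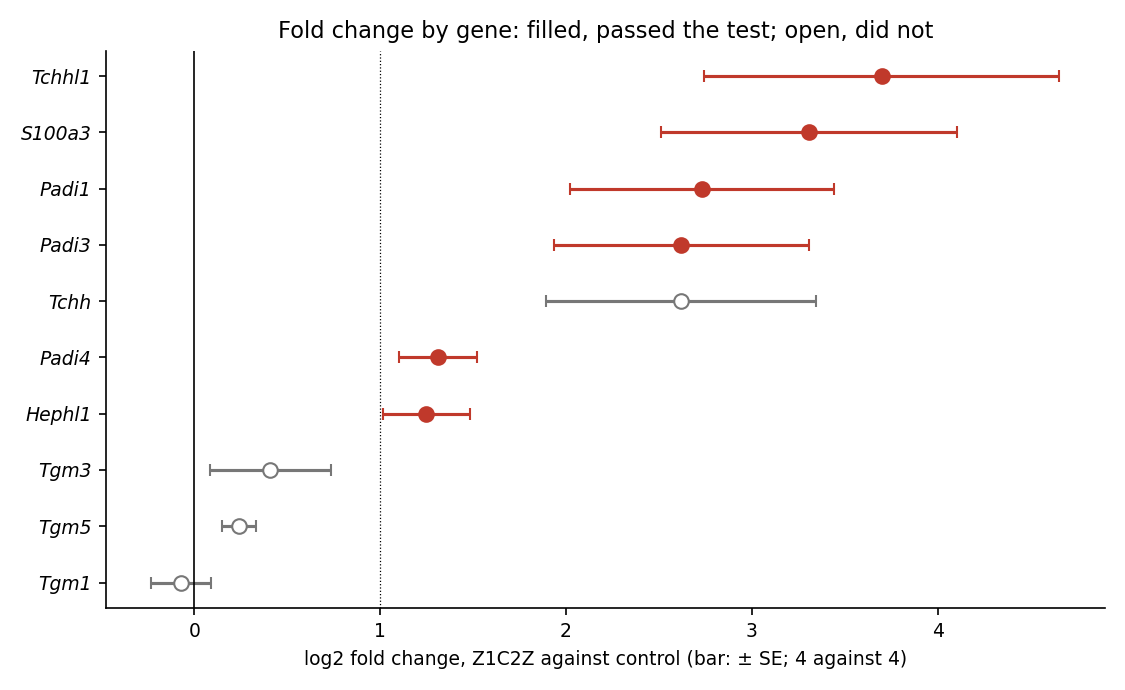
Log2 fold change of Z1C2Z against control for each gene, with bars of ± SE (4 against 4 samples); filled points passed the test. The filled points lie between 1.25 for Hephl1 and 3.70 for Tchhl1, and the transglutaminases lie between −0.07 and 0.41.

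Trichohyalin was among the genes with the most reads in the treated samples, and its level was scattered within both groups. Tchh stood at 173, 927, 1411 and 169 CPM in the controls and at 3815, 5293, 5645 and 1729 CPM in the Z1C2Z samples. The lowest Z1C2Z sample was thus above the highest control. Among all genes in the table, ordered by read count, Tchh ranked 9, 7, 7 and 21 in the Z1C2Z samples and 1140, 81, 44 and 1203 in the controls. The means were 670 ± 609 CPM and 4120 ± 1781 CPM (SD, n = 4 each), a fold of 6.15. The log2 fold change was 2.62 (SE 0.73) with an edgeR adjusted p of 0.0568, so Tchh was not among the genes that passed. It passed in 5 of 17 alternatives, DESeq2 and limma-voom among them.

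Tchhl1 encodes a smaller protein of the same family, built like trichohyalin from a calcium-binding S100 domain joined to a long tail. It read 3.66, 25.5, 74.9 and 8.37 CPM in the controls and 284, 529, 570 and 78.7 CPM in the Z1C2Z samples. The highest control, control-3, came close to the lowest treated sample, Z1C2Z-5, without reaching it. The log2 fold change of 3.70 (SE 0.96) was the largest estimate among the 10, with an adjusted p of 0.0482 in edgeR.

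Padi3 is the deiminase most closely tied to trichohyalin in the follicle. Its level was 6.29, 28.6, 46.3 and 7.01 CPM in the controls and 121, 198, 173 and 50.7 CPM with Z1C2Z. It rose with a log2 fold change of 2.62 (SE 0.69, edgeR adjusted p = 0.0491). Its samples fell in nearly the order of Tchh, low in control-1 and control-5 and high in Z1C2Z-2 and Z1C2Z-4.

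Padi1 acts in the follicle and in the upper epidermis. It was scarce, at 1.67, 4.66, 8.48 and 0.704 CPM in the controls, where control-5 had 25 reads, and at 24.3, 33.6, 37.6 and 8.40 CPM in the Z1C2Z samples. Control-3 and Z1C2Z-5 were level, so the groups overlapped. The log2 fold change was 2.73 (SE 0.71, edgeR adjusted p = 0.0485).

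Padi4 enters the nucleus and is best known from neutrophils, where it citrullinates histones. It read 8.28, 8.58, 9.83 and 6.03 CPM in the controls and 20.4, 23.0, 24.3 and 13.6 CPM with Z1C2Z. The groups did not overlap and both were tight, and Padi4 had the lowest adjusted p of the 10 (0.0299, edgeR) at a log2 fold change of 1.31 (SE 0.21). Of the 9 neutrophil markers tested, 8 had a log2 fold change below 0, while 51.1% of all genes were above 0. Their median was −1.12. None of them was called by edgeR or limma-voom, although 4 had an unadjusted edgeR p under 0.05 and DESeq2 called 2 lower. S100a9, S100a8 and Csf3r, the most abundant, had log2 fold changes of −1.36, −1.27 and −1.19. The summed level of the 9 was 578 to 1512 CPM in the controls and 171 to 663 CPM with Z1C2Z. S100a9 and S100a8 made up most of this sum, at 873.8 and 525.5 CPM in control-3, where the sum was 1512 CPM. The sum therefore says little about the other markers. The defining markers Ly6g, Mpo and Elane had at most 6, 19 and 2 reads in any sample. The source of the Padi4 reads was not tested. Padi2, the remaining deiminase that was tested, had a log2 fold change of −0.09 (SE 0.14, edgeR adjusted p = 0.708), and Padi6 had at most 2 reads in a sample.

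Transglutaminase 1 is anchored in the keratinocyte membrane and builds the cornified envelope. Tgm1 read 83.6, 94.8, 99.0 and 133 CPM in the controls and 93.5, 99.6, 117 and 81.4 CPM in the Z1C2Z samples. The groups lay on top of each other (log2 fold change −0.07, SE 0.16, edgeR adjusted p = 0.805). Its sign turned when control-5 or Z1C2Z-5 was left out, to 0.083 and 0.0078.

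Transglutaminase 3 is made as an inactive precursor and cross-links trichohyalin in the sheath as well as envelope proteins in the epidermis. Tgm3 read 24.2, 54.3, 42.6 and 48.4 CPM in the controls and 46.8, 67.0, 81.9 and 29.7 CPM with Z1C2Z. Z1C2Z-5 stood below 3 of the 4 controls. The log2 fold change was 0.41 (SE 0.33, edgeR adjusted p = 0.440), and it was −0.15 without Z1C2Z-2 and Z1C2Z-4.

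Tgm5, an epidermal transglutaminase whose loss causes peeling skin, was the steadiest of the 10. It stood at 32.1, 30.0, 28.8 and 29.3 CPM in the controls and at 36.0, 31.2, 39.7 and 35.1 CPM with Z1C2Z. The log2 fold change of 0.24 (SE 0.09) had an edgeR p of 0.0300 before adjustment and 0.134 after it. Over 17 alternatives it lay between 0.16 and 0.32, and the gene did not pass in any.

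In the whole family of 8 transglutaminase genes, only Tgm6 passed the test in edgeR (log2 fold change 2.77, SE 0.72, adjusted p = 0.0487). DESeq2 also called 1 gene of the family and limma-voom none. Tgm6 is known mainly from nerve cells. Tgm2, the widespread tissue transglutaminase, is named after its values were seen: every Z1C2Z sample was below every control (8.82% of all genes), with a log2 fold change of −0.93 (SE 0.17, edgeR adjusted p = 0.0303), short of the fold threshold. Of 4 genes linked to the processing of transglutaminase 3 or its relatives, edgeR, DESeq2 and limma-voom called none (1 had an unadjusted p under 0.05). Ctsd and Ctsl, which encode cathepsins, and Cst6, which encodes a cystatin, had log2 fold changes of 0.14, −0.01 and 0.53. The gene with the unadjusted p under 0.05 was the protease Lgmn, at −0.60 (SE 0.24, edgeR adjusted p = 0.135), named after its values were seen.

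S100a3 is a small calcium-binding protein of the hair cuticle and a substrate of PADI3. It read 11.9, 37.9, 89.6 and 15.5 CPM in the controls and 228, 664, 557 and 87.3 CPM with Z1C2Z. Only control-3 reached the range of the Z1C2Z samples, just above Z1C2Z-5. The log2 fold change was 3.31 (SE 0.80, edgeR adjusted p = 0.0411). In GENCODE M21 it overlaps S100a2 and Gm42674 on the same strand and Gm23464 on the other. S100a2 had at most 3 reads in a sample, and the other two were not analysed here.

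Hephl1 is a membrane copper oxidase of the family that oxidizes iron, and its loss gives brittle, twisted hair. It read 29.3, 32.7, 33.9 and 25.4 CPM in the controls and 63.3, 96.3, 86.3 and 42.6 CPM in the Z1C2Z samples. The groups did not overlap, and the log2 fold change was 1.25 (SE 0.23, edgeR adjusted p = 0.0303). It was the only gene that passed among 5 copper oxidases and copper carriers. Its relative Heph, named after its values were seen, fell short only of the fold threshold. Heph had a log2 fold change of 0.60 (SE 0.14, edgeR adjusted p = 0.0376), and its groups did not overlap (8.45% of all genes). Of the 5, 3 had an unadjusted edgeR p under 0.05 upward and 1 downward.

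Antisense or embedded genes overlap Tchh (Gm37245), Padi1 (Gm13032), Tgm1 (Gm49067), Tgm3 (Mir6339) and Tgm5 (Gm14213) in GENCODE M21. The strand setting of the counting is not given in the sources used here, so reads of such partners may be included in these 5 values, and for S100a3 reads of the partners named above.

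Per kilobase of transcript, the levels of different genes can be set side by side. In the controls Tchh had a mean of 115 ± 105 CPM per kb and S100a3 of 66.0 ± 61.0, followed by Tgm1 at 36.8 ± 7.65 (SD, n = 4). Tchhl1, Tgm5 and Tgm3 had means of 13.6, 11.5 and 10.3 CPM per kb, Padi3 and Hephl1 7.18 and 5.77, and Padi4 and Padi1 3.53 and 1.03. With Z1C2Z, Tchh stood at 708 ± 306 and S100a3 at 654 ± 462 CPM per kb. Tchhl1 came next at 177 ± 111, followed by Padi3 at 44.2 ± 21.3 and Tgm1 at 35.0 ± 5.28. Hephl1, Tgm3 and Tgm5 had means of 13.7, 13.6 and 13.6, and Padi4 and Padi1 of 8.78 and 6.92. In the controls, neighbours in this order overlapped within 1 SD, with the exceptions of Hephl1 over Padi4 and Padi4 over Padi1.

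The same samples were high or low for most of the genes. The top 2 treated samples were Z1C2Z-4 and Z1C2Z-2 for 9 of the 10, and Z1C2Z-5 was the lowest for 9. For the 6 genes that passed and Tchh, control-2 and control-3 were the 2 highest controls in all 7. The summed level of 7 inner root sheath keratins followed the same order, at 435 to 2338 CPM in the controls and 2822 to 10129 CPM with Z1C2Z. Of these keratins, 5 of 7 passed the test: Krt71, Krt25, Krt27, Krt73 and Krt28, with log2 fold changes of 2.48, 2.45, 2.82, 2.04 and 2.33. The 16 keratins of the hair cortex and cuticle went from 64.5 to 429 CPM in the controls to 464 to 4316 CPM, and 14 passed (median log2 fold change 3.98), a count that was 16 with DESeq2 and 5 with limma-voom. The 6 most abundant that passed were Krt85, Krt35, Krt33a, Krt87, Krt83 and Krt31, with log2 fold changes of 2.70, 2.47, 4.36, 3.99, 4.76 and 4.31. Muscle RNA differed as well: 12 skeletal muscle genes summed to 3842 to 7299 CPM in the controls and 3316 to 3698 CPM with Z1C2Z, and all 12 had a log2 fold change below 0. The 3 most abundant, Acta1, Myh1 and Myh4, had log2 fold changes of −0.86, −0.61 and −0.45. None of the 12 was called in edgeR, DESeq2 or limma-voom, although 7 had an unadjusted p under 0.05 in edgeR. By edgeR adjusted p alone, without the fold threshold, 3 were lower. In 6 of the 12 every Z1C2Z sample was below every control (8.82% of all genes). The summed muscle level did not overlap between the groups, so a muscle score and treatment cannot be fully told apart. With a muscle score as covariate none of the 10 genes was called (8 had an unadjusted p under 0.05). In that fit the log2 fold changes of Padi4 and Hephl1 were 1.25 and 1.19, close to those without the score, while those of Tchh, Padi3, Padi1, S100a3 and Tchhl1 were lower, at 1.69, 1.71, 2.00, 2.45 and 2.59. The part of follicle content in these values was not tested.

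For each 100 CPM of inner root sheath keratins there were 35.1 to 63.0 CPM of Tchh in the controls and 52.3 to 70.5 CPM with Z1C2Z. Padi3 amounted to 1.28 to 1.98 CPM and 1.80 to 2.24 CPM on the same scale. Tchhl1 went from 0.743 to 3.20 CPM to 2.79 to 6.24 CPM. Padi1 had 0.162 to 0.363 CPM in the controls and 0.298 to 0.449 CPM with Z1C2Z. The quotients of Padi4 and Hephl1 ran the other way. They were 0.421 to 1.68 against 0.227 to 0.481 CPM for Padi4 and 1.45 to 5.96 against 0.945 to 1.51 CPM for Hephl1. Both genes rose in CPM themselves, but by less than the keratin sum. For each 100 CPM of cortex and cuticle keratins, S100a3 had 18.4 to 20.9 CPM in the controls and 13.7 to 18.8 CPM with Z1C2Z. The ranges of all these quotients overlapped between the groups. They are descriptions over 4 samples a group, not corrected for gene length, and were not tested.

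**Figure D3:**
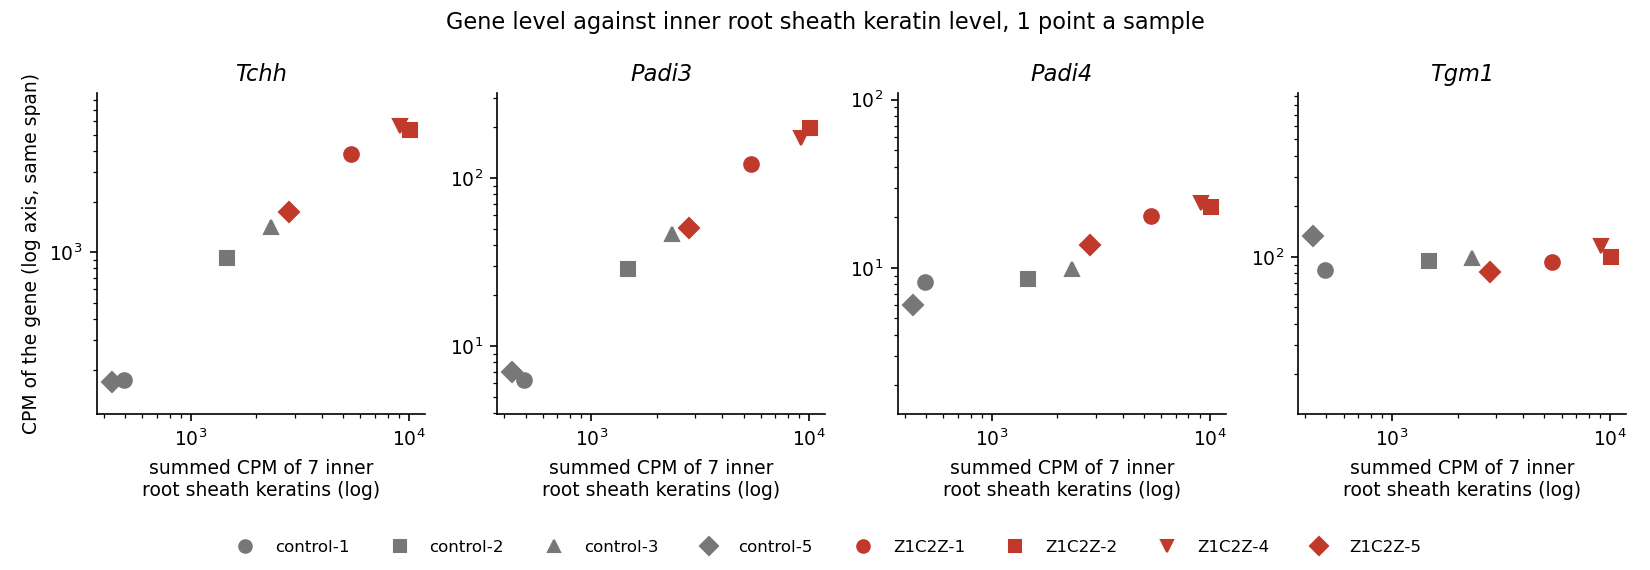
Level of Tchh, Padi3, Padi4 and Tgm1 (CPM, log axis, with the same span in each panel) against the summed CPM of 7 inner root sheath keratins (log axis), 1 point a sample. Tchh and Padi3 climb with the keratins through both groups, Padi4 climbs from 6.03 to 24.3 CPM, and Tgm1 stays between 81.4 and 133 CPM.

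The skin keratins Krt10 and Krt1 were abundant (mean log2 CPM of 12.06 and 11.96 over the 8 samples), but genes of the epidermis outside the follicle mostly did not pass. Of 11 genes of interfollicular differentiation that were tested, Krt2, a keratin close to the detection limit here, rose by the rule in edgeR (log2 fold change 3.26, SE 0.69, adjusted p = 0.0325), though limma-voom called none. All 11 had a log2 fold change above 0 (51.1% of all genes), with a median of 0.45. In 2 of the 11 every Z1C2Z sample lay above every control (8.45% of all genes). Their summed level was 9441 to 16243 CPM in the controls and 14240 to 19765 CPM with Z1C2Z. Among 7 proteins in which an S100 domain is fused to a long tail, Tchhl1 and Crnn passed, Crnn with a log2 fold change of 3.07 (SE 0.78, edgeR adjusted p = 0.0465). Crnn encodes cornulin, an epithelial differentiation protein. Of 8 regulators of the hair matrix, 5 rose: Dlx3, Hoxc13, Msx2, Lef1 and Foxn1, transcription factors needed for a normal hair shaft, with log2 fold changes of 1.55, 2.11, 2.09, 1.74 and 2.26.

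Substrate and enzyme can be read against each other within a sample. There were 27.5, 32.4, 30.5 and 24.0 CPM of Tchh for each CPM of Padi3 in the controls and 31.5, 26.7, 32.5 and 34.1 in the Z1C2Z samples. This quotient overlapped between the groups while the levels of both genes did not. For each CPM of Tgm3 there were 7.14, 17.1, 33.1 and 3.48 CPM of Tchh in the controls and 81.5, 79.0, 68.9 and 58.1 with Z1C2Z. For Tgm1 the range was 1.27 to 14.2 against 21.2 to 53.1, and for Padi4 20.9 to 144 against 127 to 232. These pairs were chosen after the values were seen and carry no test.

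**Figure D4:**
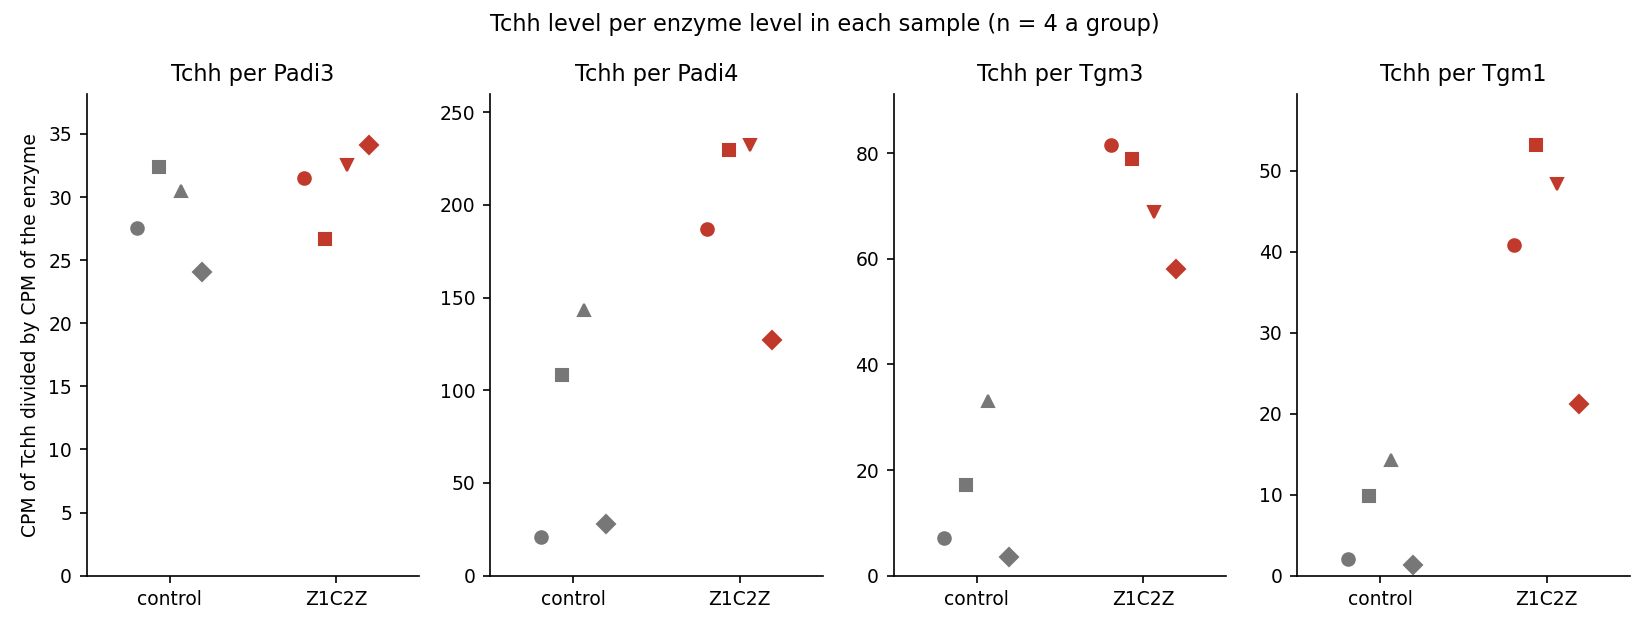
CPM of Tchh divided by the CPM of Padi3, Padi4, Tgm3 or Tgm1 in each sample, on linear axes from 0 (n = 4 a group). The quotient with Padi3 lies between 24.0 and 34.1 in all 8 samples, and those with Tgm3 and Tgm1 do not overlap between the groups.

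Within families, the log2 ratio of each pair of members was compared between groups with an exact two-sided permutation test over 70 arrangements and adjusted over the 7 pairs. The smallest exact p that this design allows is 0.0286, and 1 pair at that value alone would have an adjusted p of 0.200, so at least 5 of the 7 pairs would have to reach it for any to pass. None of the 7 adjusted values was under 0.05, and this says little about whether the ratios differ. Padi3 relative to Padi4 was higher with Z1C2Z by 1.65 on the log2 scale (0.95 ± 1.24 in the controls and 2.60 ± 0.52 with Z1C2Z, SD, n = 4), with an exact p of 0.0571 and an adjusted p of 0.200. Padi1 relative to Padi4 was higher by 1.77 (exact p = 0.0571, adjusted p = 0.200). Tchh relative to Tchhl1 differed by −1.11 (exact p = 0.0857, adjusted p = 0.200). For Padi3 and Padi1 the difference was −0.12 (exact p = 0.714), and for the 3 transglutaminase pairs it lay between 0.14 and 0.43 (smallest exact p = 0.200).

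Of all other genes tested, Padi3 had the pattern nearest to that of Tchh over the 8 samples, with a root-mean-square difference of mean-centred log2 CPM of 0.165. Outside the group the 5 nearest were Dsg4 (0.215), Tgm6 (0.221), Slc6a13 (0.235), Mroh4 (0.241) and AU018091 (0.253). Dsg4 encodes the desmosomal cadherin of the hair shaft and passed (log2 fold change 2.68, adjusted p = 0.0499 in edgeR), as did Tgm6 and AU018091. Slc6a13 and Mroh4 did not (edgeR adjusted p = 0.0812 and 0.0666). These 5 were picked for likeness to Tchh, the difference between groups included, so a rise like that of Tchh follows from the choice. In the order of nearness to Tchh, Padi1 and S100a3 ranked 17 and 31, Tchhl1 70, and Padi4 and Hephl1 266 and 313. Tgm3, Tgm5 and Tgm1 were far from Tchh, at ranks 1092, 4013 and 8450.

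The count of genes that passed rested on single samples. It was 2 of 10 (Padi4 and Hephl1) without control-1, 7 without control-3 or without Z1C2Z-5, and 0 without control-2 (7 with an unadjusted p under 0.05). It was also 0 without control-5, where edgeR called no gene of the whole table (3223 had an unadjusted p under 0.05). The same held without Z1C2Z-1 (4208 genes), without Z1C2Z-2 (3137 genes) and without Z1C2Z-4 (3100 genes), and 7 or 8 of the 10 genes were among those. The log2 fold changes of Tchh and the 6 genes that passed stayed above 0 in all 17 alternatives, from 0.80 to 1.43 for Hephl1 and from 2.59 to 4.86 for Tchhl1.

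**Figure D5:**
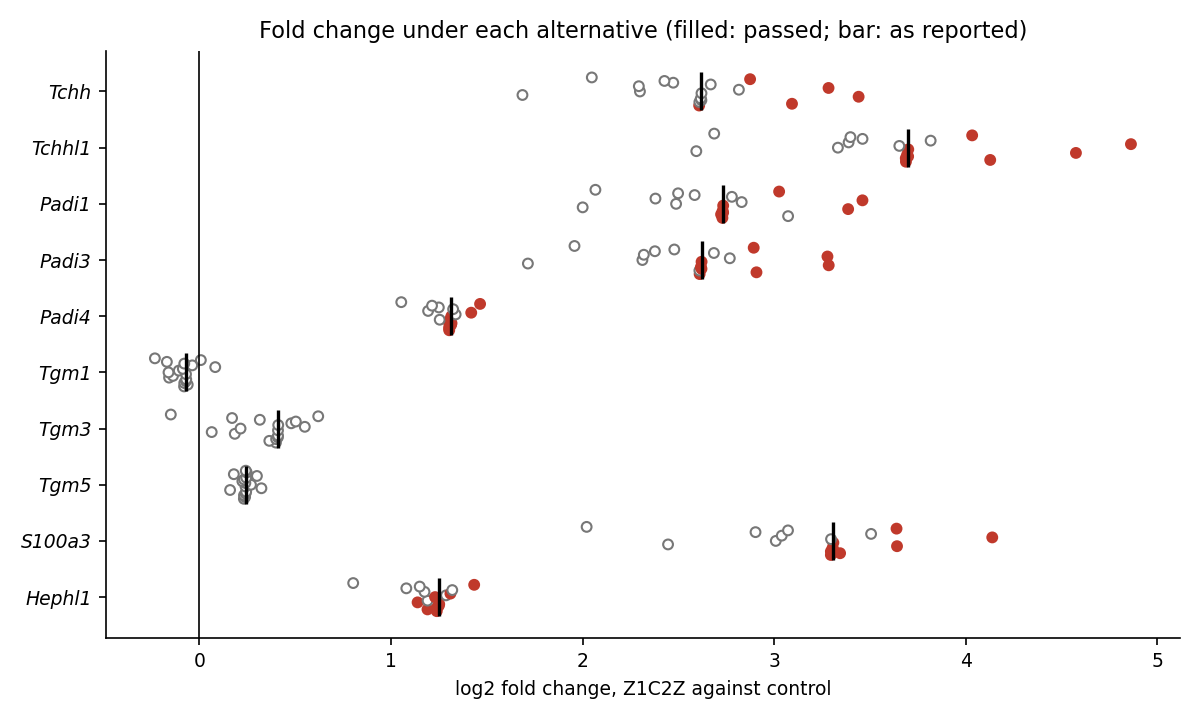
Log2 fold change of each gene as reported (vertical bar) and under 17 alternatives (points, filled where the gene passed the test). The points of Tchh, Tchhl1, the 3 Padi genes, S100a3 and Hephl1 all lie at 0.80 or above, and those of Tgm1 lie on both sides of 0.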

How the data were processed

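Wound skin RNA (4 control and 4 Z1C2Z samples) was depleted of ribosomal RNA and copied with dUTP in the second strand, per the labels. Extraction was with Trizol per the labels and with a tissue and cell kit (RNA Easy Fast) per the study's methods. What the authors deposited were whole-number counts for 18540 genes, not normalized. Aligner, counter, genome build and strand setting are not given in the sources used here. Totals were 28856790 to 38974888 counts per sample, so counting error was small beside the spread between samples except for genes near 10 counts.

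Groups were assigned from the sample titles. The 10 genes, the companion lists and the tests were chosen with earlier results of these data known. The test was that of edgeR 4.0.16 in R 4.3.3: filterByExpr (15147 genes), TMM, quasi-likelihood test, Benjamini-Hochberg adjustment over all genes tested, no covariate. A gene passed when its adjusted p was under 0.05 and its log2 fold change over 1 in size. Log2 CPM used a prior count of 2. Per-kilobase levels used the median length of the principal transcripts in GENCODE M21, matched by symbol for all 10 genes. Start-site windows came from RefSeq (GRCm38.p6). No set tests were run.

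Besides the 10 genes, the text names the genes of each list that passed (up to 6 by mean level) or else the 3 most abundant, and the 5 genes nearest to Tchh and to Tgm1. Neighbours are named by position. On simulated counts for the comparison of control and Z1C2Z with 15147 genes, 179 of the 200 genes given a log2 change of 2 were recovered (89.5%), and 5 unchanged genes were called. Each gene was simulated on its own, so these figures do not cover genes that move together across samples, as the hair genes did here. Alternatives were DESeq2 1.42.0, limma-voom (limma 3.58.1), RLE size factors, 2 other count filters, a replicate block, a skeletal muscle score as covariate, no fold threshold, each sample left out, Z1C2Z-2 and Z1C2Z-4 left out together and, for the ratios, a prior count of 0.5.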

Additional observations from a re-analysis of the deposited data

How the results depend on the processing

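The number of the 10 genes that rose was 6 as reported, 7 with DESeq2, 6 with limma-voom, 5 with RLE size factors, 6 without a count filter, 6 with at least 10 counts in every sample and 6 without the fold threshold. It was 0 with the skeletal muscle score as covariate, where 15 genes of the table were called higher and 51 lower and 8 of the 10 had an unadjusted edgeR p under 0.05. Muscle level differed between the groups, so this covariate and treatment cannot be fully told apart. The log2 fold changes in that fit were 1.25 for Padi4 and 1.19 for Hephl1, and between 1.69 (Tchh) and 2.59 (Tchhl1) for the other genes of the 6 and Tchh. It was 0 without Z1C2Z-2 and Z1C2Z-4 together, where no gene of the table was called (1980 had an unadjusted p under 0.05), and there Tgm3 had a log2 fold change of −0.15. Leaving out 1 sample at a time gave 0 to 7. The cause was not tested. None of the 10 was called lower in any of these fits. Leaving out 1 sample moved Tgm1 between −0.17 and 0.083, the log2 ratio of Tgm3 to Tgm5 between −0.14 and 0.41, and that of Padi3 to Padi1 between −0.34 and 0.11. Without control-3 the ratios of Padi3 and of Padi1 to Padi4 each had an unadjusted exact permutation p of 0.0286, the smallest that 3 samples against 4 can give, and no other pair had one under 0.05 in any alternative.

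Sample numbers 1, 2 and 5 occur in both groups, but the deviations of same-numbered samples correlated at −0.10, −0.06 and 0.32, so the numbers were not taken as a pairing. With a replicate block 7 of the 10 genes were called higher, and 271 genes of the table were higher and 184 lower, against 326 and 189 without it. Control-3 and Z1C2Z-4 share their numbers with no sample of the other group, so they added nothing to the fold changes of that fit. It thus compares fewer samples than the main fit and leaves out the highest control of Tchh. Padi1, at 25 reads in control-5, is the gene whose level depth limits most.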

Other observations

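Chromosomal neighbours of the 10 genes, taken by their order in RefSeq, mostly did not pass the test. Tchh and Tchhl1 are flanked on one side by Rptn, Hrnr and Flg, epidermal proteins of the same S100-fused family, with log2 fold changes of −0.41, 0.13 and 0.34 (edgeR adjusted p from 0.231 to 0.690). On the other side S100a11 and S100a10, S100 proteins of most epithelia, had −0.35 and −0.31. Padi4, Padi3 and Padi1 lie in a row, and the next gene, Padi2, had −0.09. Tgm6 lies close to Tgm3, with log2 fold changes of 2.77 and 0.41. Beside S100a3, S100a16 and S100a14 had 0.49 and 0.76, the latter with an edgeR adjusted p of 0.0465 but under the fold threshold, and S100a4 had −0.07.

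The 5 genes whose patterns lay nearest to that of Tgm1 were Slc25a39, Ergic3, Phf1, Rhog and Cnpy2, at root-mean-square differences of 0.0558 to 0.0981 in mean-centred log2 CPM. None of these 5 passed the edgeR test or had an unadjusted p under 0.05, with log2 fold changes from −0.17 to 0.02. They were picked for likeness to Tgm1 (log2 fold change −0.07), so this lack of difference follows from the choice. Slc25a39 is a mitochondrial carrier and Ergic3 a protein of transport between endoplasmic reticulum and Golgi, and neither is particular to skin.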
